A study of Mus musculus with 24 samples.

Results

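Bone marrow taken 24 h after bleeding was compared with bone marrow at 0 h in male mice lacking Erfe, across all genes on the array. The members were chosen by sample title: 4 marrow arrays at 24 h and 4 at 0 h, which are 8 of the 24 arrays in the series. All groups carry the genotype Erfe-/-, the controls included, and no wild-type array was used here. The 0 h mice are labelled control, and the 24 h mice were bled through the retro-orbital sinus. Whether the 0 h mice were punctured as well is not settled by the sources used here. A further 4 marrow arrays at 48 h after bleeding entered the fit and are given beside the 24 h values. Age and strain background are not given in the sources used here, and nothing in the labels says which mouse gave which array beyond the replicate number. RNA came from whole marrow, so fewer cells of a type and less RNA per cell cannot be told apart in any result.

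Blood loss lowers the oxygen supply to the kidney, which answers with erythropoietin (EPO). EPO binds its receptor on erythroid precursors and acts through JAK2 and STAT5, which switch on survival and feedback genes; the growing erythroblasts then take up iron through the transferrin receptor to make heme. Erfe encodes erythroferrone, a hormone that erythroblasts make in response to EPO and that lowers hepcidin in the liver, so these mice lack the usual signal from marrow to liver.

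One array stood apart before any comparison was made. Replicate 2 at 24 h carried liver transcripts: the median over 30 liver genes was 12.9% of the level in liver at 0 h (range over genes 6.52 to 37.9%), and all 30 were above background. On the other 7 arrays that median lay between 0.00399 and 0.0275%, the highest being replicate 1 at 0 h. The main counts are therefore given with and without replicate 2 at 24 h. The 75th percentile of signal lay between 693.8 and 941.8 intensity units on the 8 arrays, and 33188 to 35439 probes per array were well above background. Rank correlations between pairs of these arrays lay between 0.967 and 0.992, and no 2 arrays were identical. Of the 2 Erfe probes, at chromosome 1 positions 93270468 to 93270527 and 93267977 to 93268036 (mm9), neither was above background on any 0 h array; at 24 h the first was above background on replicate 2 alone, at a level of -2.60 against -7.90 to -7.08 on the other arrays of that time. The deleted part of Erfe is not given in the sources used here, so these probes do not check the genotype.

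A level below is the log2 of the processed spot signal minus the 75th percentile of its array, a change is the difference in mean level between 24 h and 0 h, and a gene rose or fell where limma gave a Benjamini-Hochberg adjusted p under 0.05 over all 21399 genes tested. By that rule 214 genes (1.0%) changed, 114 higher (0.533%) and 100 lower (0.467%). The 4 arrays at 24 h lay wholly above or wholly below the 4 at 0 h for all 214, against 1731 of all tested genes (8.09%). Without replicate 2 at 24 h, 124 genes changed (0.579%), 77 higher (0.360%) and 47 lower (0.220%), and 109 genes were called both ways. All 214 kept their sign, but groups that do not overlap cannot change sign when 1 array is left out, so this is no check. Leaving out any other 1 array gave 66 to 177 calls, the most without replicate 3 at 24 h (110 higher, 67 lower). The lower calls numbered 14 without replicate 2 at 0 h, 72 without replicate 1, 33 without replicate 3 and 32 without replicate 4 at 0 h, 47 without replicate 1 and 52 without replicate 4 at 24 h. The higher calls numbered 52 without replicate 2 at 0 h, 70 without replicate 1 or 3 and 96 without replicate 4 at 0 h, 56 without replicate 1 and 68 without replicate 4 at 24 h. Below, a call is said to be lost where the adjusted p was no longer under 0.05. Each of the 3 slides held arrays of both times, and within them the JAK2-STAT5 target Cish changed by 2.91, 2.44 and 2.51, the transferrin receptor gene Tfrc by 1.08, 0.88 and 0.47, and the class II gene H2-Ab1 by -0.84, -1.05 and -0.97; with slide as a block 77 genes were called higher and 88 lower. The change of all tested genes had a median of -0.03 with all arrays and -0.0019 without replicate 2 at 24 h. With all arrays it was positive for 9217 genes and negative for 12182, the baseline for the counts of signs in lists below.

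Among the JAK2-STAT5 genes the smallest adjusted p was that of Cish, a SOCS-family inhibitor that STAT5 itself induces. Its levels were -0.21, -0.59, -0.23 and -0.07 at 0 h and 2.51, 2.21, 2.34 and 2.52 at 24 h. All 4 bled mice lay far above all 4 controls, with means of -0.28 ± 0.22 and 2.40 ± 0.15 (SD, n = 4 each). The change of 2.67 (SE 0.15) is a 6.37-fold increase (limma adjusted p = 1.12e-05), and it was 2.73 without replicate 2 (limma adjusted p = 9.52e-05). The probe lies at chromosome 9, 107204196 to 107204255 (mm9). The RefSeq promoter of Cish is shown because it holds a pair of matches to the STAT5 motif TTCNNNGAA close to the start of transcription; the capitals mark the matches, which begin at bases 1 and 12 counted from the start as 1.
Cish, chr9:107296655-107296683 (GRCm38.p6, plus strand): agttTTCCTGGAAagTTCTTGGAAatctg
Among tested genes with a RefSeq promoter (250 bases before to 50 after the start), the motif, which reads the same on both strands, occurred in 1086 of 12545 (8.66%), in 11 of 79 that rose (13.9%) and in 5 of 58 that fell (8.62%).

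A further 3 of the 24 tested genes of the EPO receptor, JAK2-STAT5 and feedback list rose. Plek2, which encodes pleckstrin-2, an actin-binding protein of erythroblasts, read -2.23, -2.39, -2.17 and -1.94 at 0 h and 0.10, -0.17, -0.40 and -0.03 at 24 h. The groups were well apart, and the change of 2.06 (SE 0.13; 4.16-fold; limma adjusted p = 2.99e-05) was 2.07 without replicate 2. Pim1, a serine/threonine kinase gene and STAT5 target, read 3.79, 3.43, 3.62 and 3.80 at 0 h and 4.94, 4.89, 4.58 and 4.87 at 24 h. It rose by 1.16 (SE 0.12; 2.24-fold; limma adjusted p = 0.000888), and by 1.14 without replicate 2. Podxl, which encodes the sialomucin podocalyxin, was not well above background on any 0 h array and rose at least 2.60-fold (limma adjusted p = 0.000888, and 0.00443 without replicate 2). None of these 4 calls was lost when any 1 array was left out. Such a bound sets the bled group's mean against, on each control array, the higher of the probe's own signal and the lowest signal counted as above background. The bound belongs to this background correction: with normexp correction the fitted change of Podxl was 0.75, less than the bound (limma adjusted p = 0.0177). The median change over the list was -0.01, against -0.03 over all genes. Among members that did not pass, the EPO receptor gene Epor changed by -0.01 (limma adjusted p = 0.98), the survival gene Bcl2l1 by -0.01 (limma adjusted p = 0.977) and the feedback inhibitor Socs2 by 0.40 (limma adjusted p = 0.263).

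**Figure D1:**
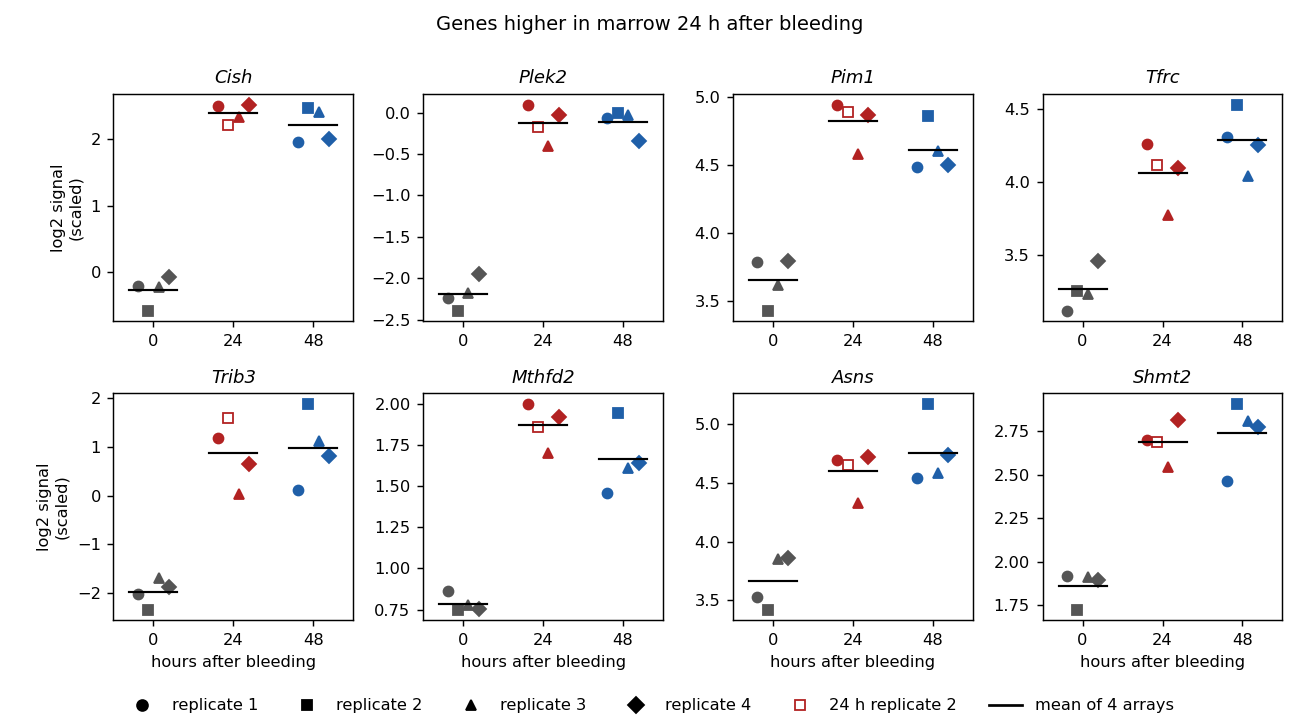
Levels (log2 signal minus the array's 75th percentile) of genes that rose, by array at 0, 24 and 48 h, with group means; the open square is replicate 2 at 24 h. In each panel the 24 h arrays lie above all 0 h arrays, and replicate 2 lies among or near the other bled mice.

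Few erythroid genes outside this pathway passed the test at 24 h. In the list for iron uptake, storage, sensing and export, 1 of 21 genes rose: Tfrc, the transferrin receptor gene, read 3.12, 3.25, 3.24 and 3.46 at 0 h and 4.26, 4.12, 3.77 and 4.09 at 24 h. The bled mice all lay above the controls, by 0.79 (SE 0.13; 1.73-fold; limma adjusted p = 0.0155), and by 0.78 without replicate 2 (limma adjusted p = 0.047). The call was lost without replicate 2 or 3 at 0 h or replicate 1 at 24 h (limma adjusted p = 0.0507 to 0.0598). Ferritin heavy chain Fth1 changed by 0.06 (limma adjusted p = 0.822). Of the 10 tested genes of the globin list, 1 rose, the embryonic beta-like globin Hbb-bh1: it read -3.41, -3.83, -3.72 and -3.24 at 0 h and -1.62, -1.93, -2.75 and -2.06 at 24 h. Its change of 1.46 (SE 0.26; 2.75-fold; limma adjusted p = 0.0255) was 1.41 without replicate 2 (limma adjusted p = 0.0719). That call was lost without any 1 array other than replicate 4 at 0 h and replicate 3 at 24 h (limma adjusted p = 0.0564 to 0.0991). It was lost too with normexp correction, with no filter on dim probes, and with slide or replicate as a block. Over all alternatives the smallest change of Hbb-bh1 was 0.89. Probes for near-identical globins can share signal. The adult genes Hba-a1 (-0.11, limma adjusted p = 0.682) and Hbb-b1 (-0.34, limma adjusted p = 0.384) did not pass.

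None of the 20 erythroid transcription factors, 17 heme synthesis genes or 22 red cell membrane and cytoskeleton genes passed the test at 24 h. Changes leaned upward in the heme list, with 15 of 17 positive and a median of 0.21, and in the membrane list, with 18 of 22 positive and a median of 0.10, against -0.03 over all genes. The heme enzyme gene Cpox changed by 0.52 (limma adjusted p = 0.116), and Alas2, the erythroid enzyme of the first step of heme synthesis, by -0.39 (limma adjusted p = 0.359). Among the factors, Gata1 changed by 0.27 (limma adjusted p = 0.449), Klf1 by 0.30 (limma adjusted p = 0.382) and Tal1 by 0.42 (limma adjusted p = 0.119). At 48 h, against the same 0 h arrays, the medians were 0.46 for heme synthesis, where 4 genes rose, and 0.45 for the membrane list, where 3 rose.

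Genes of the integrated stress response and amino acid supply formed the other group of increases. In this response phosphorylation of eIF2 alpha raises ATF4, which switches on amino acid synthesis and tRNA charging; in erythroblasts the heme-regulated kinase is one of its triggers. Of 34 tested genes, 5 rose and none fell: Trib3, Mthfd2, Asns, Shmt2 and Aars. The list's median change was 0.18. Trib3, a pseudokinase gene induced by ATF4, read -2.02, -2.34, -1.68 and -1.88 at 0 h and 1.18, 1.59, 0.04 and 0.66 at 24 h. All bled mice lay above the controls but spread widely, and the change was 2.85 (SE 0.38; 7.19-fold; limma adjusted p = 0.00523), and 2.61 without replicate 2 (limma adjusted p = 0.014).

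The other called members had smaller changes. Mthfd2, a folate cycle dehydrogenase gene, read 0.86, 0.75, 0.78 and 0.75 at 0 h and 2.0, 1.86, 1.70 and 1.92 at 24 h, a change of 1.08 (SE 0.10; 2.12-fold; limma adjusted p = 0.000665), and 1.09 without replicate 2. Shmt2, which makes glycine from serine in mitochondria, rose by 0.82 (SE 0.10; 1.77-fold; limma adjusted p = 0.0038), and no array of one time reached the range of the other; its call was lost when a gene's probes were averaged (limma adjusted p = 0.131). Asns, the asparagine synthetase gene, read 3.53, 3.42, 3.85 and 3.86 at 0 h and 4.69, 4.65, 4.33 and 4.71 at 24 h. Its change was 0.93 (SE 0.16; 1.91-fold; limma adjusted p = 0.0196), and 0.91 without replicate 2 (limma adjusted p = 0.0562). The alanyl-tRNA synthetase gene Aars rose by 0.56 (limma adjusted p = 0.0228), and 0.53 was measured without replicate 2 (limma adjusted p = 0.0613). The Asns call was lost too without replicate 1 or 2 at 0 h or replicate 1 or 4 at 24 h (limma adjusted p = 0.0582 to 0.0712), and that of Aars without replicate 1, 2 or 3 at 0 h or replicate 1 or 4 at 24 h (limma adjusted p = 0.0623 to 0.0798). The list's count was thus 3 without replicate 2 at 24 h, and also 3 when replicate 1 or 2 at 0 h or replicate 1 at 24 h was left out. The mRNAs of the pathway's own factors did not pass: Atf4 changed by 0.28 (limma adjusted p = 0.286) and Ddit3, which encodes CHOP, by 0.19 (limma adjusted p = 0.501). The Asns promoter is shown for its match to the ATF4 motif TGATGNAA, in capitals, 23 bases before the start.
Asns, chr6:7693215-7693244 (GRCm38.p6, minus strand): gtcccagccacaTGATGAAActtcccgcac
On either strand this motif occurred in 391 of 12545 promoters (3.12%), in 6 of 79 of genes that rose (7.59%: Aars, Asns, Tars, Trib3, Trim15 and Yars) and in 6 of 58 of genes that fell (10.3%).

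Most of the largest increases among genes with symbols lay outside these lists. Arhgdig read -3.64, -2.87, -3.21 and -2.99 at 0 h and 0.13, -0.42, -0.31 and -0.11 at 24 h, a change of 3.0 (SE 0.21; 8.02-fold; limma adjusted p = 7.18e-05). Its other probes gave 2.83 and 3.20. C2cd4a, which encodes a C2-domain protein, rose by 2.82 (SE 0.27; 7.05-fold; limma adjusted p = 0.000665). Mgp, the matrix Gla protein gene and a local inhibitor of calcification, read 1.77, 1.37, 1.57 and 1.28 at 0 h and 3.76, 3.59, 3.17 and 3.30 at 24 h, a 3.88-fold increase (limma adjusted p = 0.000118). In none of these 3 genes did the groups overlap or the call end when 1 array was left out, and without replicate 2 at 24 h the changes were 3.08, 2.98 and 1.91. Apol10a, of the apolipoprotein L family, rose 3.80-fold, the crystallin gene Crybb3 3.20-fold, the G-protein regulator Rgs16 3.03-fold, the folate receptor gene Folr1 2.83-fold and the vitamin C transporter gene Slc23a1 2.55-fold. Of these 5, the call for Rgs16 was lost without replicate 1 or 2 at 24 h or replicate 2 at 0 h (limma adjusted p = 0.0505 to 0.0566), and the other 4 were kept without any 1 array. Normexp background correction gave smaller changes for some of these 8 genes, among them 2.23 for Arhgdig, 1.75 for C2cd4a, 0.76 for Crybb3 and 0.92 for Rgs16, with the calls kept. The sizes for Folr1 and Slc23a1 depended on the processing too. Over the alternatives in which they were tested, their smallest changes were 1.08 and 1.04, below those of the main fit, with the calls kept.

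For 5 more genes that rose, no control array was well above background. Ankrd36, an ankyrin repeat gene, rose at least 9.56-fold (its other probe changed by 1.04), and the RING-domain gene Trim15 at least 6.04-fold, with 0 h levels of -6.45 to -5.19 against -3.19 to -2.13 at 24 h. The bounds were at least 2.70-fold for Gng13, a G protein gamma subunit gene, 2.56-fold for Stc1, which encodes the glycoprotein hormone stanniocalcin 1, and 2.46-fold for Hs6st2, a heparan sulfate sulfotransferase gene. Each of the 5 kept its call in every alternative in which it was tested. These bounds, too, belong to this background correction; with normexp correction the fitted changes shrank to 1.67 for Ankrd36, 1.22 for Trim15, 0.94 for Gng13, 0.81 for Stc1 and 0.69 for Hs6st2.

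Other pathways gave few calls. Mt2, a metallothionein gene that answers to glucocorticoids and to zinc, read 3.99, 3.91, 4.06 and 4.01 at 0 h and 5.22, 5.43, 4.87 and 5.08 at 24 h, a 2.23-fold increase (limma adjusted p = 0.000581), with a change of 1.16, and 1.06 without replicate 2. It was the 1 call among 17 glucocorticoid target genes, whose median change was -0.06. The clock list gave 1 call among 15 genes, Per3 (0.50; limma adjusted p = 0.049), which was lost without any 1 array other than replicate 1 at 0 h (limma adjusted p = 0.0755 to 0.14); the time of day of sampling is not given in the sources used here. None of 32 hypoxia and glycolysis genes passed (median -0.02), nor did any of 30 interferon-stimulated genes (median -0.10). Of 35 genes for DNA replication and nucleotide supply none passed, but 34 had a positive change, with a median of 0.17, and for 6 of them the 24 h arrays all lay above the 0 h arrays (3.78% over all genes). The 29 mitosis genes gave no call and a median of 0.05.

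**Figure D2:**
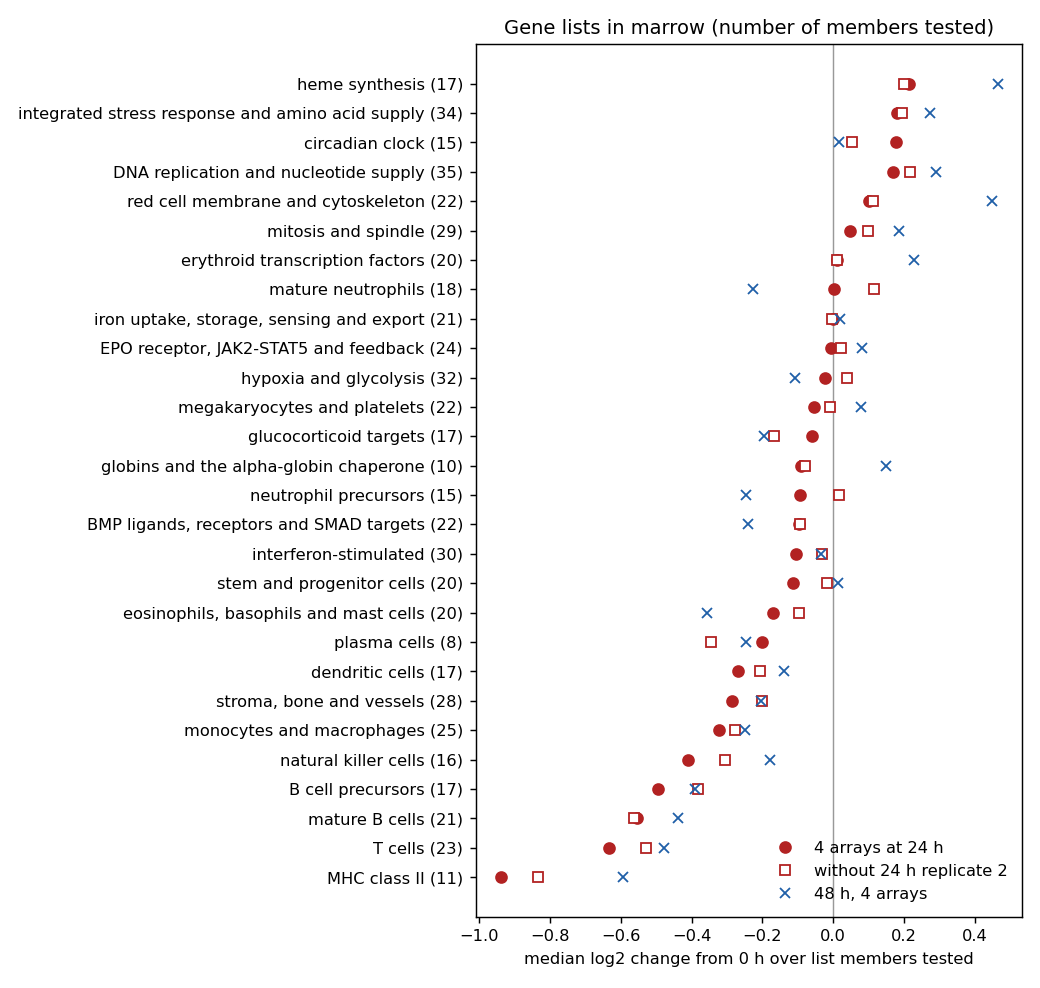
Median change (log2) of each gene list at 24 h with all 4 arrays (filled circles) and without replicate 2 (open squares), and at 48 h (crosses), all against the same 0 h arrays. MHC class II (-0.94), T cell (-0.63), mature B cell (-0.55) and B cell precursor (-0.50) lists lie farthest below 0, with or without replicate 2; the liver list is left out of the plot.

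Genes for antigen presentation by MHC class II had the highest share of decreases among the 29 lists. Class II molecules, carried by B cells, dendritic cells and macrophages, show peptides to CD4 T cells. Of 11 tested class II genes, 9 fell, and the list's median change was -0.94. The list median on each array, relative to the 0 h mean, was -0.01, 0.15, -0.15 and 0.08 at 0 h and -0.82, -1.21, -0.90 and -0.78 at 24 h, so all 4 bled mice lay below all controls and replicate 2 lay lowest. Within the 3 slides the list median was -0.87, -1.05 and -0.90. Without replicate 2 the median was -0.83 and 5 genes were called (H2-Aa, H2-Ab1, H2-Eb1, H2-Eb2 and Cd74). Leaving out other arrays one at a time left 2 to 7 calls: 2 without replicate 2 at 0 h, 4 without replicate 4 at 0 h and 4 without replicate 1 at 24 h, with medians of -0.99 to -0.90.

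The class II chains fell together. H2-Ab1, the I-A beta chain gene, read 5.12, 5.14, 4.95 and 5.18 at 0 h and 4.29, 3.90, 4.16 and 4.25 at 24 h, and fell by 0.95 (SE 0.12; 1.93-fold lower; limma adjusted p = 0.0037), or by 0.86 without replicate 2 (limma adjusted p = 0.00941). H2-Eb1, the I-E beta chain gene, read 4.88, 4.83, 4.71 and 4.83 at 0 h and 4.07, 3.56, 3.87 and 3.99 at 24 h, and fell by 0.94 (SE 0.13; 1.92-fold lower; limma adjusted p = 0.00544), or by 0.83 without replicate 2 (limma adjusted p = 0.0101). The I-A alpha chain gene H2-Aa fell 1.88-fold (limma adjusted p = 0.0116). In all 3 the groups were separate, with replicate 2 at 24 h the lowest. Cd74, the invariant chain that guards the class II groove, read 4.28, 4.68, 4.18 and 4.44 at 0 h and 3.57, 3.15, 3.62 and 3.62 at 24 h, and fell 1.87-fold (limma adjusted p = 0.0155). Without replicate 2 at 24 h, H2-Aa and Cd74 fell by 0.82 and 0.79 (limma adjusted p = 0.0277 and 0.0326); without replicate 2 at 0 h both calls were lost (limma adjusted p = 0.0502 and 0.0544).

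Ciita, the coactivator that switches on the class II genes, fell by 0.96 (SE 0.17; 1.95-fold lower; limma adjusted p = 0.0244), and by 0.85 without replicate 2 (limma adjusted p = 0.0604). Peptide loading genes also fell: H2-DMb1 by 0.54 (limma adjusted p = 0.0413), and the DM inhibitors H2-Oa by 0.89 (limma adjusted p = 0.0246) and H2-Ob by 1.11 (limma adjusted p = 0.0377). None of these 4 passed without replicate 2 at 24 h, and each was lost without several other single arrays, among them replicates 2 and 4 at 0 h and replicate 1 at 24 h (limma adjusted p = 0.0507 to 0.131). H2-Eb2 fell by 1.23 (limma adjusted p = 0.0249), and by 1.43 without replicate 2 (limma adjusted p = 0.00954). Its call was lost without replicate 1, 2 or 4 at 0 h or replicate 1, 3 or 4 at 24 h (limma adjusted p = 0.0633 to 0.0754). It was lost too with slide as a block, no filter on dim probes, or 0 h and 24 h arrays alone. Within the 3 slides H2-Eb2 changed by -1.63, -0.32 and -1.50, and over all alternatives its smallest change was -0.65. H2-DMa (-0.51, limma adjusted p = 0.199) and H2-DMb2 (-1.26, limma adjusted p = 0.122) did not pass; related class II genes can share probe signal. The 4 promoter stretches below are shown because these members fell together and share the Y box letters CTGATTGG, in capitals, a motif chosen after the values were seen.
H2-Aa, chr17:34287861-34287890 (GRCm38.p6, minus strand): atcacaagagaattttCTGATTGGttctgg
H2-Eb1, chr17:34305789-34305818 (GRCm38.p6, plus strand): ctggactcctttgatgCTGATTGGctccca
H2-Eb2, chr17:34325556-34325585 (GRCm38.p6, plus strand): ctggtgctcttggctgCTGATTGGttcttc
H2-Oa, chr17:34092317-34092346 (GRCm38.p6, plus strand): atctcagagaactgctCTGATTGGctgctt
The letters begin 51, 62, 103 and 46 bases before the start in this order. On either strand they occurred in 4 of the 8 class II promoters in the RefSeq table (50%), in 774 of 12545 promoters of tested genes (6.17%), in 6 of 79 of genes that rose (7.59%) and in 6 of 58 of genes that fell (10.3%). Of the 6 that fell, 4 are the class II genes shown here.

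**Figure D3:**
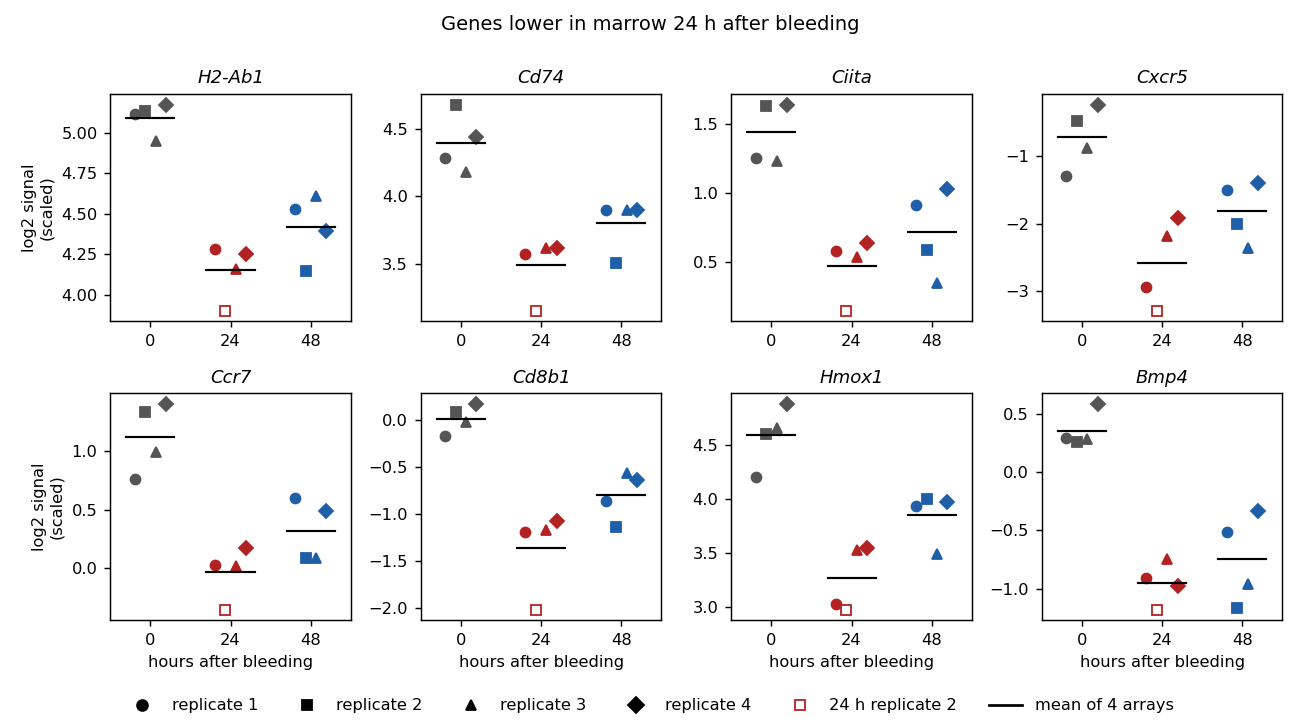
Levels (log2 signal minus the array's 75th percentile) of genes that fell, by array at 0, 24 and 48 h, with group means; the open square is replicate 2 at 24 h. The 24 h arrays lie below all 0 h arrays in each panel; for Cd8b1 and Cd74 replicate 2 lies apart below the other bled mice.

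T cell genes were lower as well. Of 23 tested, 6 fell, the median change was -0.63, and for 15 the 24 h arrays all lay below the 0 h arrays (4.31% over all genes). The list median was -0.41, -0.85 and -0.61 within the 3 slides. Cd8b1, the CD8 beta chain gene of cytotoxic T cells, read -0.17, 0.08, -0.02 and 0.17 at 0 h and -1.19, -2.03, -1.17 and -1.08 at 24 h. Replicate 2 lay lowest and the other bled mice close together; Cd8b1 fell by 1.38 (SE 0.20; 2.61-fold lower; limma adjusted p = 0.00948), and by 1.16 without replicate 2 (limma adjusted p = 0.00459). Ccr7, the receptor that guides naive T cells and dendritic cells to lymph nodes, read 0.76, 1.33, 0.99 and 1.40 at 0 h and 0.03, -0.36, 0.02 and 0.17 at 24 h, and fell 2.23-fold (limma adjusted p = 0.0126); the change was -1.16, and -1.05 without replicate 2. Cd8a fell by 1.1 (limma adjusted p = 0.0268), the CD3 delta chain gene Cd3d by 0.65 (limma adjusted p = 0.0368), Thy1 by 0.71 (limma adjusted p = 0.0413) and the inhibitory receptor gene Pdcd1 by 0.77 (limma adjusted p = 0.0426). Without replicate 2, 5 of the list were called, among them Zap70, which was not called with all arrays; 1 of the list was called without replicate 2 at 0 h, 2 without replicate 3 or 4 at 0 h or replicate 4 at 24 h, and 3 without replicate 1 at 0 h. The Ccr7 call was lost without replicate 2 at 0 h (limma adjusted p = 0.0517), those of Cd8a and Cd3d without any 0 h array or replicate 4 at 24 h, and Cd3d also without replicate 1 at 24 h (limma adjusted p = 0.0547 to 0.107), that of Thy1 without any array but replicate 3 at 24 h, and that of Pdcd1 without any 1 array (limma adjusted p = 0.0703 to 0.147). In the natural killer list, 1 of 16 fell, the Tec-family kinase gene Txk (-0.62; limma adjusted p = 0.0155), with a list median of -0.41; Txk was lost without replicate 2 at 0 h or replicate 1 at 24 h (limma adjusted p = 0.0593 and 0.0507).

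B cell lists had medians of similar size and rested more on single arrays. Of 21 mature B cell genes 5 fell, with a median of -0.55 and 20 of 21 negative. Cxcr5, the receptor that draws B cells into follicles, read -1.30, -0.48, -0.88 and -0.24 at 0 h and -2.93, -3.29, -2.18 and -1.92 at 24 h, and fell by 1.86 (SE 0.34; 3.63-fold lower; limma adjusted p = 0.0257). Fcmr, the IgM Fc receptor gene, fell 2.70-fold (limma adjusted p = 0.0273), and the complement receptor gene Cr2 by 1.15 (limma adjusted p = 0.042); Ciita, also of the class II list, and the Fc receptor-like gene Fcrl1 (-0.95; limma adjusted p = 0.0269) were the other calls. None of the 5 passed without replicate 2 at 24 h, where the list's median was -0.56, and none of the list passed without replicate 2 or 4 at 0 h or replicate 1 at 24 h; 1 passed without replicate 3 at 0 h and 3 without replicate 3 at 24 h. Over all these lost calls the limma adjusted p was 0.0512 to 0.144. The pan-B gene Ms4a1, which encodes CD20, changed by -1.01 and did not pass (limma adjusted p = 0.11). All 17 B cell precursor genes had a negative change (median -0.50), and none passed; the list median spread from -0.37 to 0.27 over the controls and from -0.75 to -0.10 over the bled mice, so the groups overlapped. None of the 8 plasma cell genes passed (median -0.20).

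**Figure D4:**
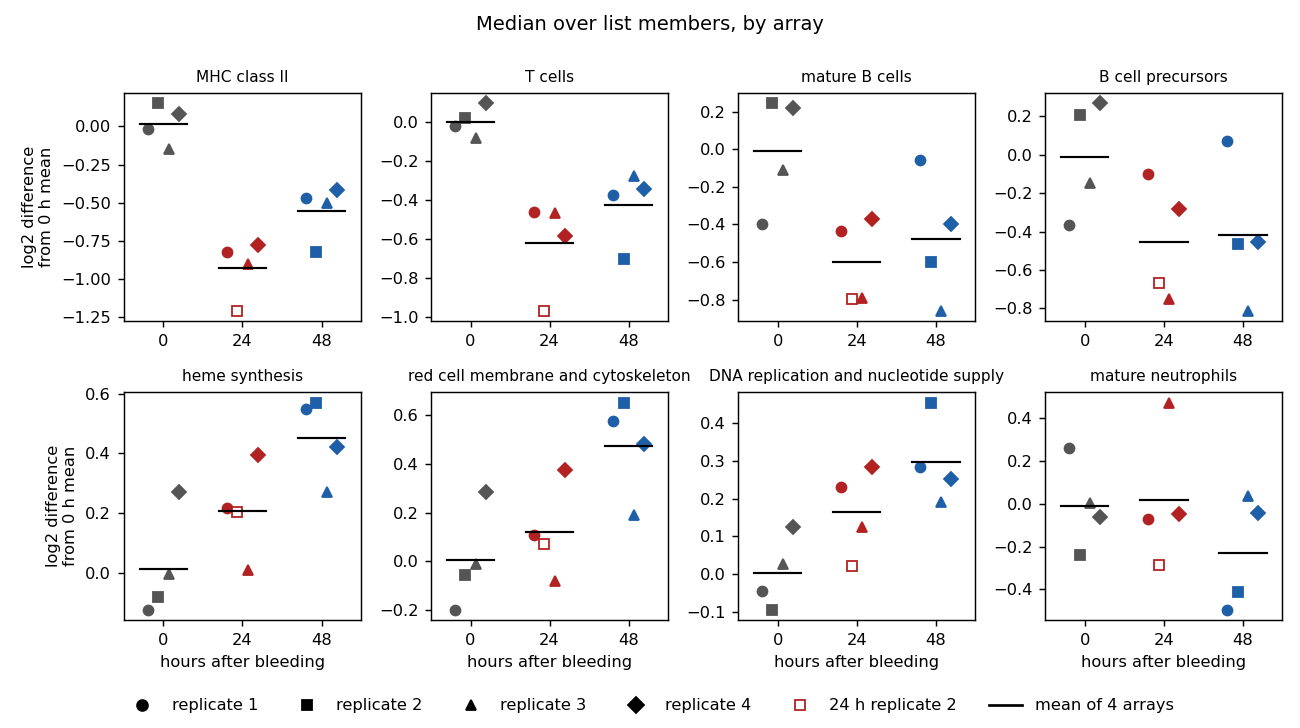
Median level of selected gene lists on each array, relative to the list's 0 h mean (log2), with 0, 24 and 48 h arrays side by side and replicate 2 at 24 h as an open square. The class II and T cell medians separate 24 h from 0 h, whereas the other 6 lists drawn overlap; of lists not drawn, natural killer, dendritic, monocyte and macrophage, and stress response medians separate too.

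Macrophage and stromal genes gave few calls. Hmox1, heme oxygenase 1, with which marrow macrophages break down heme from old red cells, read 4.20, 4.60, 4.66 and 4.88 at 0 h and 3.03, 2.98, 3.52 and 3.54 at 24 h. Bled mice and controls did not overlap, and Hmox1 fell by 1.32 (SE 0.18; 2.49-fold lower; limma adjusted p = 0.00705), and by 1.22 without replicate 2 (limma adjusted p = 0.0203). It was the 1 call of 25 monocyte and macrophage genes, whose median change was -0.32, with 23 of 25 negative; for 12 the 24 h arrays all lay below the 0 h arrays (4.31% over all genes). Genes of the macrophages that surround erythroblasts did not pass: Vcam1 changed by -0.38 (limma adjusted p = 0.0911), Cd5l by -0.62 (limma adjusted p = 0.09), Spic by -0.56 (limma adjusted p = 0.114) and the iron exporter gene Slc40a1 by -0.35 (limma adjusted p = 0.282).

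Bmp4, a ligand of the BMP pathway, which in the spleen takes part in stress erythropoiesis, was 1 of 22 BMP genes to fall. It read 0.30, 0.26, 0.29 and 0.59 at 0 h and -0.91, -1.19, -0.75 and -0.98 at 24 h, with no overlap. It fell by 1.32 (SE 0.17; 2.49-fold lower; limma adjusted p = 0.00497), its other probe changed by -1.23, and the call held in all 20 alternatives. The stroma, bone and vessel list gave 1 call in 28, with a median of -0.29: Adam33, a metalloprotease gene (-1.43; limma adjusted p = 0.0231), whose other probes spanned -1.63 to 0.27. Ogn, a small proteoglycan gene outside the lists, fell by 1.26 (limma adjusted p = 0.0155, and 0.0357 without replicate 2 at 24 h); its call was lost without replicate 2, 3 or 4 at 0 h or replicate 4 at 24 h (limma adjusted p = 0.0502 to 0.0654). Other large decreases were those of Pla2g2d, a secreted phospholipase gene (-1.45; limma adjusted p = 0.0225; -0.77 with normexp correction), Rec114, a meiotic recombination gene (-1.38; limma adjusted p = 0.0149), Ifi213 (-1.22; limma adjusted p = 0.047) and Aldh3b2, an aldehyde dehydrogenase gene (-1.16; limma adjusted p = 0.0449). Of these, Rec114 kept its call without any 1 array. Pla2g2d, Adam33, Ifi213 and Aldh3b2 lost theirs without replicate 1 or 2 at 24 h or replicate 2 or 4 at 0 h, and each without at least 1 further array (limma adjusted p = 0.0505 to 0.148). The other probe of Pla2g2d changed by -0.82, and the calls of Pla2g2d and Adam33 were lost when a gene's probes were averaged. Brinp2, with no 24 h array above background, fell at least 2.01-fold (limma adjusted p = 0.0187, and 0.0574 with normexp correction). This bound depends on the processing: over the alternatives in which Brinp2 was tested its smallest fitted change was -0.49, less than the bound. The call was lost without replicate 2, 3 or 4 at 0 h or replicate 1 or 4 at 24 h (limma adjusted p = 0.0514 to 0.0592).

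The list median of each bled mouse lay below that of every control for monocytes and macrophages (-0.38 to -0.23 against -0.10 to 0.17), natural killer cells (-0.81 to -0.25 against -0.02 to 0.07) and dendritic cells (-0.54 to -0.20 against -0.07 to 0.12), as for class II and T cells. For the integrated stress response it lay above (0.10 to 0.21 against -0.08 to 0.04).

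The remaining marrow lineages gave hardly any call. None of 15 neutrophil precursor genes (median -0.09), 18 mature neutrophil genes (median 0.00), 22 megakaryocyte and platelet genes (median -0.05), 20 stem and progenitor genes (median -0.11) or 20 eosinophil, basophil and mast cell genes (median -0.17) passed, and 1 of 17 dendritic cell genes did, Pla2g2d, given above (list median -0.27). The neutrophil gene S100a8 stayed within 8.36 to 8.79 at 0 h and 8.40 to 8.64 at 24 h. The signs of the EPO, erythroid factor, iron and mature neutrophil medians, all near 0, turned under other scalings.

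Leaving out replicate 2 at 24 h as a whole also moved fold sizes. The median change of the 100 genes that fell was -0.88 with it and -0.81 without it, and that of the 114 that rose was 0.83 and 0.80. Without it the change was larger in 55 of the 114 and in 12 of the 100. Of the 114 genes that rose, 13 were at least 3 log2 units higher in liver than in marrow at 0 h. The same held for 0 of the 100 that fell and for 977 of all 21399 tested, a lower share than among the genes that rose. Trib3 (3.05 higher in liver) and Slc23a1 (4.46 higher) were among the 13, and replicate 2 read highest of the bled mice for both. Without replicate 2 both kept their calls (limma adjusted p = 0.014 and 0.0112). Fitting without genes higher in liver, Trib3 and Slc23a1 included, left 104 higher and 103 lower calls. Tfr2, an iron sensor of liver and erythroblasts, read 3.73 on replicate 2 and 2.26 to 2.47 on the other bled mice, and did not pass (limma adjusted p = 0.276). Whether the liver RNA plays a part in the lower immune levels of that array was not tested.

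**Figure D5:**
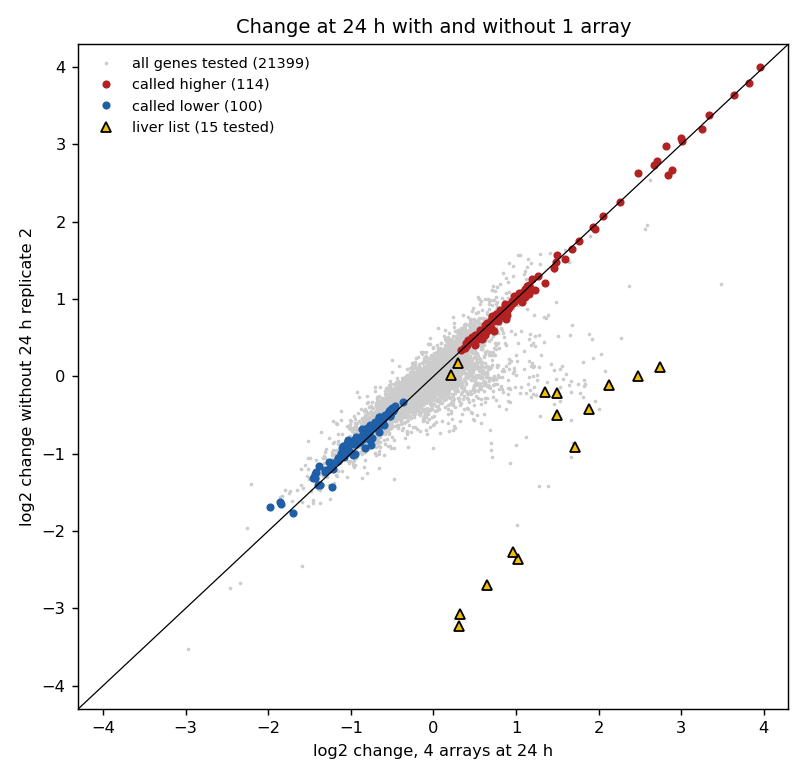
Change at 24 h (log2) with all 4 arrays (horizontal) against the change without replicate 2 (vertical), 1 point per gene tested, with called genes coloured and the liver list as triangles. Called genes lie near the diagonal, and liver genes, with a list median of 1.35 against -0.43, lie off it.

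Against the same 0 h arrays, 191 genes were higher (0.893%) and 36 lower (0.168%) at 48 h. Of the 214 genes called at 24 h, 94 were also called at 48 h, 79 of those higher and 15 of those lower; leaving out 1 array gave 41 to 98, with 41 without replicate 2, 52 without replicate 3 and 56 without replicate 1 at 0 h, and 55 without replicate 1 and 58 without replicate 4 at 24 h. The 100 genes lower at 24 h had a median change of -0.51 at 48 h, and the 114 higher genes 0.79. Picking genes by their 24 h change favours smaller changes at 48 h, and both changes share the 0 h arrays. These medians therefore do not show whether levels returned towards those of the controls. Cish changed by 2.49 at 48 h, Plek2 by 2.07, Trib3 by 2.96 and Tfrc by 1.02, whereas H2-Ab1 changed by -0.68, Hmox1 by -0.73 (limma adjusted p = 0.0881) and Cxcr5 by -1.09 (limma adjusted p = 0.148). The medians at 48 h were -0.59 for class II, -0.48 for T cells and -0.44 for mature B cells. Tested directly, 48 h against 24 h, 1 gene passed (0.00467%): Nacad, named after its values were seen, whose mean level was -4.20 ± 0.14 in controls, -3.27 ± 0.13 after 24 h and -1.96 ± 0.20 after 48 h (SD, n = 4 each; limma adjusted p = 0.00326). An unadjusted limma p under 0.05 was found for 1641 of the 21399 genes tested, among them 72 of the 214. The 214 were picked by 24 h values that also enter this contrast, so their higher share is partly built in. Apart from Nacad, then, no difference between 24 h and 48 h passed the test for the genes named here.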

How the data were processed

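Per the file headers, Agilent Feature Extraction 10.10.1.1 made each array's processed signal, an intensity that is background subtracted and detrended within the array and not scaled between arrays. The authors also deposited processed values on a log2 scale, used as an alternative; their scaling is not given in the sources used here. Per the labels' protocols, RNA extracted with Trizol was labelled with Cy3; the submitters' processing notes name limma.

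From the deposited intensity, log2 signal minus the 75th percentile of the array was taken. The 3671 control spots and spots with a feature outlier flag were left out, spots of 1 probe averaged, and probes kept if every array of 1 marrow time or more found them well above background. A gene took its kept probe of highest mean. Names came from the RefSeq GRCm38.p6 table (32989 probes by accession, 10228 by symbol, 519 by synonym; 12869 kept the file's name), and probe positions from the files (mm9). No probe was saturated. Which exon a probe lies in was not analysed here.

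limma 3.58.1 (R 4.3.3; lmFit, eBayes, two-sided, Benjamini-Hochberg) was fitted to the 12 marrow arrays, with 24 h minus 0 h as contrast; standard errors of changes had a median of 0.13. Each sample is a separate array; where the labels do not say more, p-values measure the spread between these samples. An exact permutation test of 4 against 4 arrays cannot go below p = 0.0286. On simulated data the fit called 30% of changes of 0.5 log2 units, 80% of changes of 1 and 94% of changes of 2, with 10 false calls. The simulated noise was independent between genes, without liver RNA on 1 array or shifts shared by many genes, so these shares may differ on the real arrays. Slides hold both times (replicates 1 and 2 at 0 h with replicate 1 at 24 h; replicate 3 with replicate 2; replicate 4 with replicates 3 and 4), and slide was tried as a block. Motifs were searched in Python 3.11.15.

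Named genes are, among genes with symbols that passed and whose groups did not overlap, the 12 largest increases and 12 largest decreases above background on all 8 arrays, every gene at background in 1 group (as a bound), and for each of 29 lists (636 genes) the members that passed or up to 2 of smallest p. The members and lists were chosen with earlier results of these data known, so lists have no test of their own. A few genes outside the rule are named where they help to read a list.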

Additional observations from a re-analysis of the deposited data

Results flagged for a closer look

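In 190 groups of 4 arrays checked with Dixon's criterion, 13 held 1 array far from the other 3; chance gives about 1 in 20. Of these, 6 were replicate 2 at 24 h. The median level of 30 liver genes was 6.48 there against -5.96 to -4.99 on the other bled mice. Ambp, a liver-secreted protein gene, read 6.93 against -3.91 to -3.05, and Tfr2 read 3.73 against 2.26 to 2.47. Lower on that array were Cd8b1 (-2.03 against -1.19 to -1.08), Cd74 (3.15 against 3.57 to 3.62) and the BMP antagonist gene Grem1 (-1.82 against -1.44 to -1.38).

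The same liver median was -2.78 on replicate 1 at 0 h against -4.92 to -4.68 on the other controls. Ogn was also low on that array (0.59 against 1.18 to 1.25). Replicate 2 at 0 h was low for Shmt2 (1.72 against 1.90 to 1.92) and for Gng11, a G protein gamma subunit gene (3.90 against 4.13 to 4.17). Replicate 4 at 0 h was high for Bmp4 (0.59 against 0.26 to 0.30) and Brinp2 (-3.87 against -4.61 to -4.48). Replicate 3 at 24 h was low for Asns (4.33 against 4.65 to 4.71).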

How the results depend on the processing

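Of the 55 named genes that passed, 24 kept their call in every alternative in which they were tested, and 4 were lost in 1 only. None turned direction, but leaving out 1 array could not turn one, since the groups of these genes did not overlap. The 214 calls stayed within 1.5 times (165 to 259) under quantile scaling, normexp correction, the authors' values, a filter on all 8 arrays, the mean of probes, slide block, trend with robust fitting, and a fit without liver genes. They fell to 66 with no filter on dim probes (50 higher, 16 lower) and 115 with 0 h and 24 h arrays alone (67 higher, 48 lower), and rose to 391 with array weights (229 higher, 162 lower). Leaving out 1 array gave 66 to 177 calls, 52 to 110 higher and 14 to 72 lower: 66 without replicate 2 at 0 h, 103 without replicate 3 and 128 without replicate 4 at 0 h, 142 without replicate 1 at 0 h, and at 24 h 103 without replicate 1, 124 without replicate 2 and 120 without replicate 4.

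The 124 calls without replicate 2 at 24 h became 32 with no filter, 82 with slide block, 202 with trend and robust fitting, 258 with array weights, 76 with 2 times alone, and 37 to 91 with a further array left out. The 94 genes called at both times became 41 with no filter, 55 with slide block, 245 with array weights, and 41 to 98 with 1 array left out.

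Deviations of same-numbered 0 h and 24 h arrays from their group means correlated at -0.04, -0.01, 0.10 and 0.16. Differently numbered arrays were not set beside them, so these values cannot settle whether the replicate numbers pair the arrays. With a replicate block 124 genes passed (73 higher, 51 lower), 30 without replicate 2 at 24 h, and 56 were shared with 48 h. The cause of these differences was not tested. The 4 arrays a group limit the precision, and genes at background in 1 group have bounds alone.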

Other observations

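These genes and families were chosen after their values were seen. The long non-coding RNA gene Gm32051 shared the smallest adjusted p with Cish. It read -3.07, -2.86, -2.71 and -2.41 at 0 h and 1.47, 1.11, 0.61 and 1.02 at 24 h, a change of 3.82 (SE 0.21; limma adjusted p = 1.12e-05). Lrrc8b, a volume-regulated anion channel subunit gene that neighbours it in RefSeq, rose by 1.07 (limma adjusted p = 0.00594). The cytidine deaminase gene Cda rose by 2.89 (limma adjusted p = 0.000581). Dapl1 fell by 1.98 (limma adjusted p = 0.0124), the TAM receptor ligand gene Gas6 by 0.95 (limma adjusted p = 0.00932) and the matrix gene Ltbp2 by 0.98 (limma adjusted p = 0.00497).

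Of 8 tested Gimap genes, GTPase genes of lymphocytes, 4 fell (Gimap1, Gimap3, Gimap4 and Gimap6) and all 8 had a negative change, with a median of -0.56; without replicate 2 at 24 h none passed and the median was -0.51. Of 8 apolipoprotein L genes, whose sequences are alike enough to share probe signal, 3 rose (Apol10a, Apol11b and Apol8), with a median of 0.95, and 0.42 with 1 call without that array. Of 20 cytosolic tRNA synthetase genes, 4 rose (Aars, Cars, Tars and Yars), 18 had a positive change, and the median was 0.32; 2 passed without that array, with a median of 0.34.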
